A study of Mus musculus with 15 samples.

Results

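Cytosolic ribosomal protein genes encode the proteins that, together with the ribosomal RNAs, build the 2 subunits of the ribosome outside the mitochondria. A gene was taken as a member when it was protein-coding and its symbol was Rpl (large subunit) or Rps (small subunit) followed by a number, with at most one letter and one digit after it, or was Rplp0, Rplp1, Rplp2 or Rpsa. Kinases of the Rps6k family and processed pseudogenes were left out. The rule found 83 members among the 55450 genes of the count table, 32 of the small and 51 of the large subunit. The rule used names only and no measured value.

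The mRNA of the liver was sequenced in 15 female C57BL/6 mice, 1 library per mouse. The Adult group (A1 to A5) was 6 months old and received the vehicle. The Old group (O1 to O5) was 22 months old and received the same vehicle, 120 µL of corn oil. The PDX group (P1 to P5) was also 22 months old and received protectin DX, a lipid mediator derived from docosahexaenoic acid, at 30 ng per g of body weight in corn oil. Gavage was daily in all groups, for 9 weeks by the protocol in the labels and for 8 weeks by the design text of the series. The labels name no engineered allele. By the study's methods these were the ages at baseline, so the livers, taken after the weeks of treatment and testing, came from older mice. The age and the treatment were thus compared as Old minus Adult and as PDX minus Old, with PDX minus Adult beside them. The first 2 comparisons share the Old mice, so a high or low Old group moves both.

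Ribosomal protein mRNAs are made by RNA polymerase II from genes scattered over most chromosomes, and the subunits need most of their proteins in equal numbers. Most of these mRNAs begin with a 5′ terminal oligopyrimidine tract, a C followed by a run of C and U that places their translation under mTORC1 through LARP1. In the liver, ribosome production is known to follow growth signals and feeding. Most ribosomal protein genes have also left many processed retrocopies in the mouse genome, which carry nearly the same exonic sequence.

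The tract could be looked for in the annotated starts. RefSeq promoters (GRCm38.p6) were at hand for 63 of the 83 members, with 75 starts. The tract, searched on the sense strand as a C at the start itself followed by at least 4 bases that are each C or T, was present at 13 of these starts (17.3%), each in a different member, against 823 of 32851 starts of all genes (2.51%). With the C allowed within 5 bases of the start on either side, the tract was present at 31 member starts (41.3%) against 18.3% of all starts. The following windows run from 15 bases before the annotated start to 15 bases into the transcript, 5′ to 3′, with the tract in capitals. They show the tract of 7 members described below and, last, Rpl27a, whose annotated start is not the C the search required.
Rpl15 (chr14:18270972-18271001, - strand): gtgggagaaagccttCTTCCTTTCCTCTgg
Rps6 (chr4:86857353-86857382, - strand): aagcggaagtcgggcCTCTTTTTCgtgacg
Rpl35a (chr16:33056467-33056496, + strand): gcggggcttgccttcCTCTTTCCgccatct
Rpl38 (chr11:114668565-114668594, + strand): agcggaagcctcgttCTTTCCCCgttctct
Rps15a (chr7:118116133-118116162, - strand): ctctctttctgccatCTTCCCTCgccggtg
Rps27 (chr3:90213634-90213663, - strand): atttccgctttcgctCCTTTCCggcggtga
Rplp2 (chr7:141447636-141447665, + strand): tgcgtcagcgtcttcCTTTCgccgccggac
Rpl27a (chr7:109519180-109519209, + strand): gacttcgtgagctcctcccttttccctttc

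The search at the start itself misses a tract when the start is annotated a few bases away. In the Rpl27a window a run of C and T begins just before the annotated start and goes on to the end of the window, and it stands in lower case because the search did not count it. The 13 tested members with the tract at an annotated start had a median log2 fold change of 0.39 for Old minus Adult, and the 47 with an entry and no tract there had 0.43. Of the windows shown, Rps15a, Rplp2 and Rpl27a belong to members that rose with age by the test described below, and Rpl35a belongs to the one member whose groups were ordered the other way.

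Each library held 22424383 to 36070835 counted read pairs. Levels are given as counts-per-million values (CPM) scaled by trimmed mean of M values (TMM), with factors from 0.884 in O1 to 1.33 in O2. O2 and O5 had the lowest sums of hepatocyte markers among the Old mice. These markers, of which 7 of 8 were matched, summed to 130537 to 142013 CPM in Adult, to 202286, 75866, 131123, 162381 and 48157 CPM in O1 to O5 and to 107678 to 164509 CPM in PDX mice, so none was near 0 as a sum in any library. The sums were mostly Alb, at a mean of 111332 CPM in Adult mice, 65645 CPM in O2 and 34724 CPM in O5. In O5, Cyp2e1, Ttr and Serpina1c were also the lowest of the Old mice. Cps1 and Ass1 in O5, at 3675 and 1119 CPM, were above O1, O2 and O4, and Apoa1 was above O2. The counts and medians led with below are given without O2 and O5 as well.

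Ribosomal protein genes took 0.343% to 0.683% of all counted pairs. Of the 83 members, 82 had at least 1 count in some mouse, and 80 passed the filter on low counts and were tested. The members span a wide range of level. Among the highest per kilobase of exonic length over all 15 mice were Rplp1 at 281, Rpl4 at 256, Rpl8 at 226, Rps15 at 176 and Rplp0 at 149.7 CPM per kb. In Adult mice Rplp1 was at 250.2 ± 14.3 and Rpl4 at 220.4 ± 6.42 CPM per kb (SD, n = 5), and Rplp0 at 110.4 ± 6.15 CPM per kb. The median tested member was at 10.3 CPM per kb. The lowest members with any count were Rpl39l at 0.0115, Rpl3l at 0.183, Rps13 at 1.10 and Rps27 at 1.44 CPM per kb. The highest tested member was thus 256 times the lowest. The length merges the exons of all annotated transcripts, retained introns included, so a gene with long annotated exons gets a lower value.

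**Figure D1:**
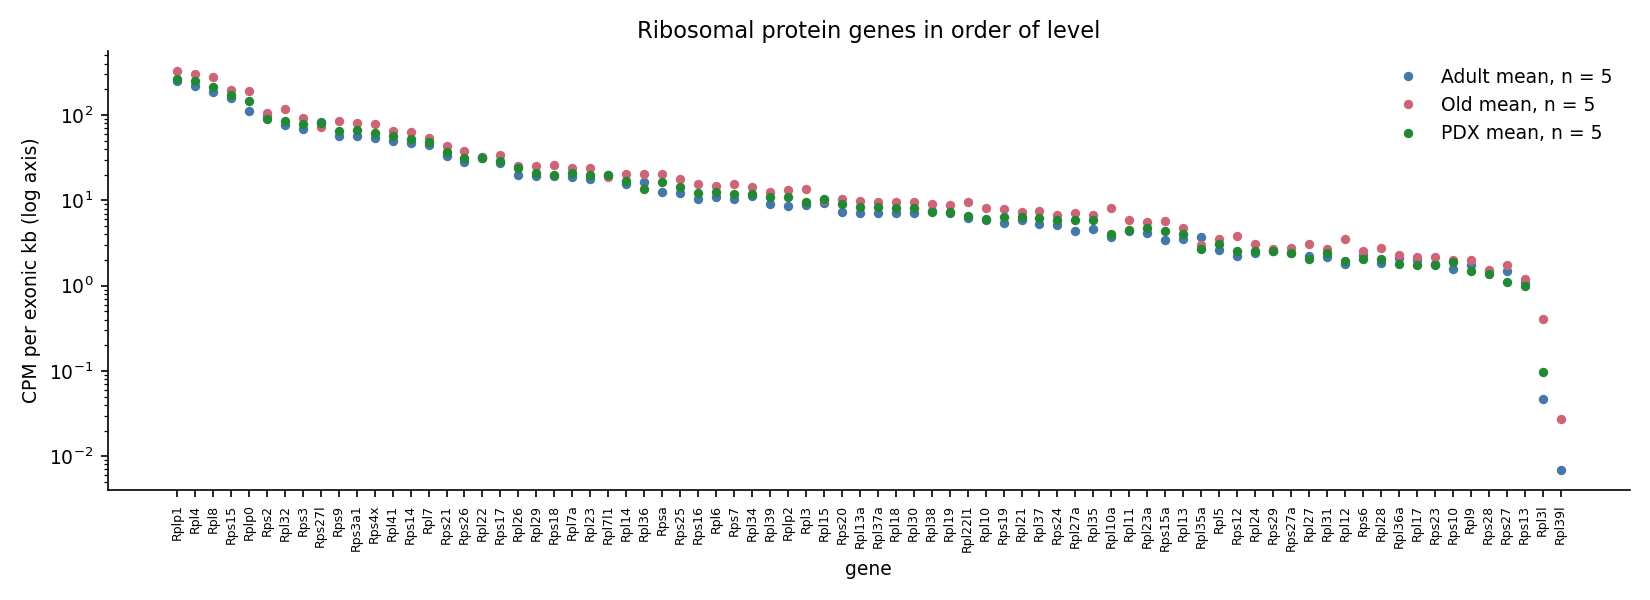
Mean level of members with any count (CPM per kilobase of exonic length, log axis), in order of the mean over all 15 mice, with 1 point for each group mean (n = 5); a group mean of 0, as for Rpl39l in PDX mice, has no point. Rplp1, Rpl4 and Rpl8 lead, Rpl3l and Rpl39l are far below the rest, and the Old means lie above the Adult means for most genes.

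These levels are counts of pairs that aligned to one place in the genome, and many members share sequence with their retrocopies. A median of 40.2% of a member's 50-base windows, with a range of 0% to 86.7%, was also present in another annotated gene. A total of 402 annotated pseudogenes or retrogenes shared at least 10% of a member's windows and were read as its copies, for 68 members. In 36 members under 50% of the pairs counted at the member and its copies together were counted at the member itself, and in 8 members under 10%. Rps6, the S6 kinase substrate of the small subunit, was at 3.65 CPM against 46.8 CPM for its 8 copies. Rps27 was at 1.51 CPM against 55.9 CPM for its 3 copies. For Rplp1, 99.9% of such pairs were at the member, and Rpl8, Rps3 and Rpl32 had no copy by this rule. The order of levels above is therefore an order of uniquely counted pairs, and the level of members with copies is uncertain. Across the 82 members, the percentage of shared windows and the level per kilobase had a Spearman correlation of -0.16, given as a description across genes of the same libraries.

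**Figure D2:**
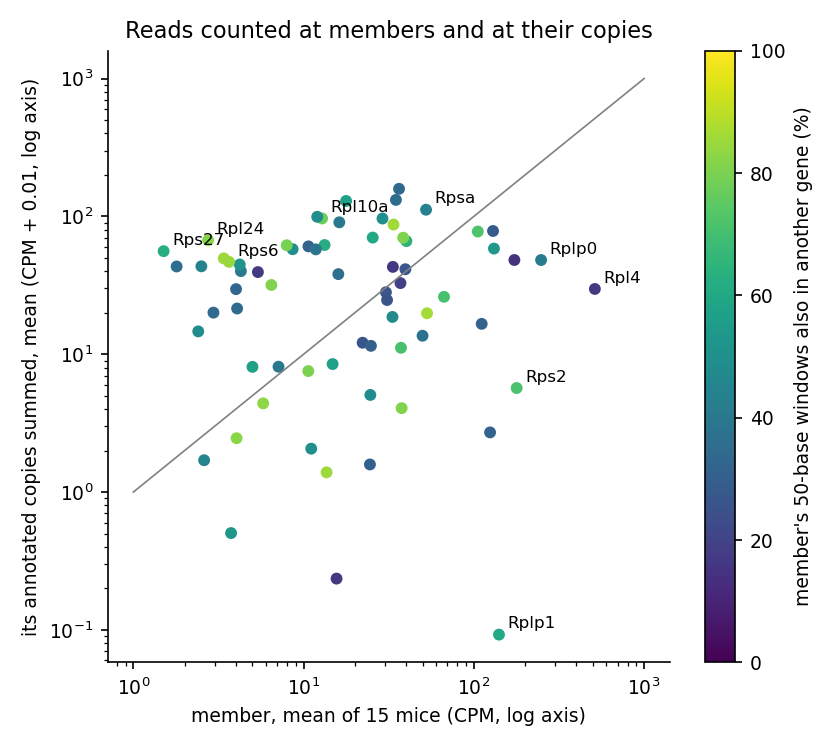
Mean level of each tested member with copies (x axis, CPM, log axis) against the summed mean level of its annotated copies (y axis, CPM + 0.01, log axis), coloured by the percentage of the member's 50-base windows that another gene also holds. The line marks equal levels. Rps27, Rpl24 and Rps6 lie far above it, and Rplp1, Rps2 and Rpl4 far below.

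The levels of the members were summed in each mouse to see the whole set at once. The summed level of the 83 members was 3937, 3865, 3691, 3416 and 3825 CPM in A1 to A5, 5767, 4279, 4072, 4868 and 6558 CPM in O1 to O5 and 4541, 3806, 4218, 4089.5 and 4316 CPM in P1 to P5. All 5 Old mice were above all 5 Adult mice, with O5 and O1 the highest, while the PDX mice lay between and overlapped both groups. The means were 3747 ± 205 CPM in Adult, 5109 ± 1044 CPM in Old and 4194 ± 273 CPM in PDX mice (SD, n = 5), which is 1.36 times as much in Old as in Adult and 0.82 times as much in PDX as in Old. Without O2 and O5 the ratio of Old to Adult was 1.31. No p is given for a sum over chosen genes, and in a bulk sample fewer cells of a type and less RNA per cell cannot be told apart. The annotated copies, counted apart from the members, summed to 2460.2, 2379.7, 2321, 2117 and 2373 CPM in A1 to A5, 3834, 2774, 2649, 3108 and 4385 CPM in O1 to O5 and 2971, 2376, 2749.6, 2686 and 2780.4 CPM in P1 to P5, and O5 and O1 were again the highest mice. Their mean was 1.44 times as high in Old as in Adult mice.

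The subunits moved together. The 32 small-subunit genes summed to 1758 ± 103, 2384 ± 489 and 1966 ± 141 CPM in Adult, Old and PDX mice. The 51 large-subunit genes summed to 1989 ± 104, 2725 ± 556 and 2228 ± 136 CPM. The ratio of small- to large-subunit counts ran from 0.872 to 0.898 in Adult, from 0.851 to 0.895 in Old and from 0.858 to 0.913 in PDX mice, and the groups overlapped. The scaling bears on O2: scaled by library totals alone its members summed to 5683 CPM, above O1 at 5098 and below O5 at 6833 CPM.

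**Figure D3:**
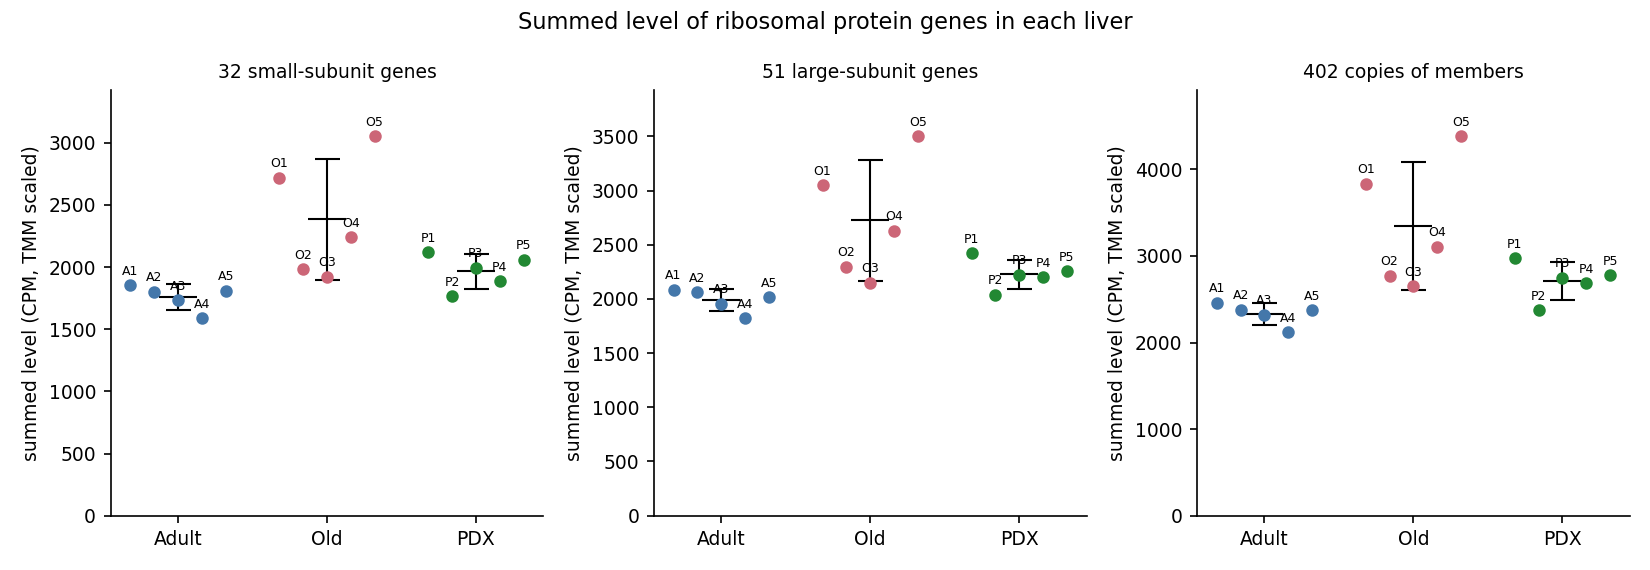
Summed level (CPM, TMM scaled, axes from 0) of the small-subunit members, the large-subunit members and the annotated copies in each mouse. Points are mice, the wide bar is the group mean and the whiskers are 1 SD (n = 5); the Old points all lie above the Adult points in each panel, and O5 and O1 are the highest.

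Old minus Adult sets age against age in livers of mice given the vehicle. In this comparison, 20 of 80 members rose (25%) and 0 fell, by edgeR's quasi-likelihood test over 15808 genes at an adjusted p under 0.05. Over all genes, 4.71% rose and 2.07% fell by the same rule. At an unadjusted p under 0.05, 56 members (70.0%) were higher and 1, Rpl35a, was lower, against 17.9% and 9.81% of all genes. The DESeq2 Wald test called 42 members higher and 1 lower, and 2524 of all genes in either direction. The median log2 fold change was 0.42 over the members and 0.07 over all genes, and 76 of 80 members had a higher mean in Old mice, against 56.8% of all genes. The 32 small-subunit members had a median of 0.43 with 11 that rose, and the 48 tested large-subunit members a median of 0.42 with 9 that rose. In 26 members all 5 Old mice were above all 5 Adult mice, against 3.65% of all genes, and in 1 member, Rpl35a, all 5 were below, against 4.48%.

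The number of calls depended on which mice entered the fit. Leaving out 1 Adult mouse left 5 (A1), 2 (A2), 1 (A3), 0 (A4) and 0 (A5) members that rose, leaving out O3 gave 47 and leaving out P4 gave 13. Over all genes, the calls in either direction moved as well, from 1072 to 243, 187, 195, 206 and 156 without A1 to A5, to 2178 without O3 and to 707 without P4. The members' median log2 fold change stayed between 0.30 (without O5) and 0.50 (without O3). With only the 10 Adult and Old mice in the fit 0 members passed by edgeR's quasi-likelihood test, where 105 of all genes did. Without O2 and O5, 26 rose and the median was 0.36. The calls over all genes in that fit are not given, so the 26 is not read as a result about the members.

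**Figure D4:**
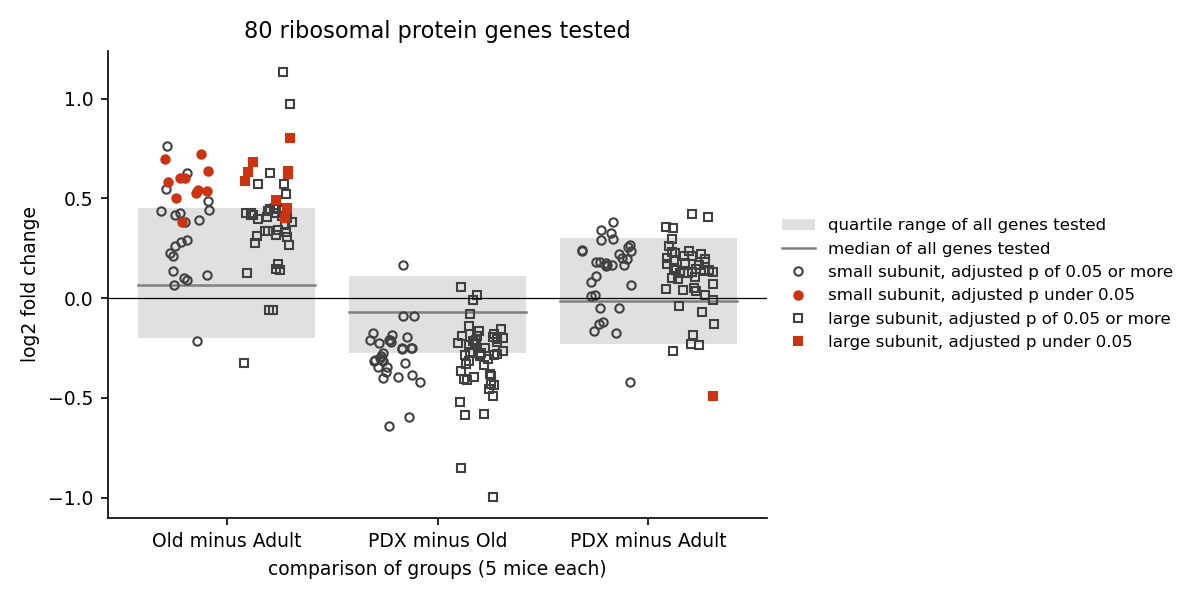
Log2 fold change of the 80 tested members in the 3 comparisons, small subunit as circles and large subunit as squares, filled red at an adjusted p under 0.05. The grey band is the range between the quartiles of all 15808 genes tested and the grey line their median; the members sit mostly above that line for Old minus Adult and mostly below it for PDX minus Old.

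The stalk of the large subunit, which recruits the elongation and initiation factors that split GTP, is built of Rplp0, Rplp1 and Rplp2, and all 3 rose with age. Rplp0 was at 201, 182, 182, 175 and 176 CPM in the Adult mice A1 to A5, 324, 266, 235, 293 and 478 CPM in the Old mice O1 to O5, and 268, 235, 249, 227 and 234 CPM in the PDX mice P1 to P5. Every Old mouse was above every Adult mouse, and O5 was far above the rest. Rplp0 (chr5:115559467-115563727, + strand, mm10) had a log2 fold change of 0.80 ± 0.17 (SE; edgeR adjusted p = 0.0187). Rplp1 gave 129, 132, 128, 117 and 117 CPM in A1 to A5, 180.2, 146, 153, 169.7 and 178 CPM in O1 to O5 and 133, 115, 140.4, 138 and 130.0 CPM in P1 to P5. The Old mice lay above all Adult mice and above all PDX mice as well. Rplp1 (chr9:61913284-61914542, - strand) had a log2 fold change of 0.40 ± 0.10 (SE; edgeR adjusted p = 0.0348) for Old minus Adult. Rplp2 gave 20.1, 18.6, 16.6, 14.6 and 17.9 CPM in A1 to A5, 29.5, 21.1, 20.3, 27.5 and 38.2 CPM in O1 to O5 and 27.0, 20.2, 23.9, 21.1 and 20.3 CPM in P1 to P5. Its Old and Adult mice did not overlap either, though O3 and A1 were close, and the log2 fold change was 0.64 ± 0.17 (SE; edgeR adjusted p = 0.0352).

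Rps15a, a protein of the small-subunit body, had the smallest p of all members. Rps15a was at 24.2, 21.4, 21.6, 19.6 and 21.3 CPM in the Adult mice A1 to A5, 40.3, 31.7, 27.0, 31.5 and 48.0 CPM in the Old mice O1 to O5, and 30.2, 23.8, 26.5, 30.9 and 25.5 CPM in the PDX mice P1 to P5. All Old mice were above all Adult mice, with O5 and O1 the highest, and the PDX mice overlapped both groups. Rps15a (chr7:118104372-118116188, - strand) had a log2 fold change of 0.72 ± 0.14 (SE; edgeR adjusted p = 0.016) for Old minus Adult. It shares 6.28% of its windows with other genes and has no copy by the rule above. Rpl39 gave 13.2, 13.6, 12.9, 12.0 and 12.7 CPM in A1 to A5, 20.9, 17.0, 15.6, 16.6 and 20.6 CPM in O1 to O5 and 16.1, 15.7, 16.3, 15.5 and 15.7 CPM in P1 to P5. Rpl39, a small protein at the wall of the peptide exit tunnel, was higher in every Old mouse and in every PDX mouse than in any Adult mouse, with a log2 fold change of 0.49 ± 0.10 (SE; edgeR adjusted p = 0.0186).

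Among the proteins around the mRNA channel and the head of the small subunit, Rpsa, also known as the laminin receptor, rose and the other 3 described did not pass. Rpsa gave 42.5, 42.1, 39.2, 36.9 and 39.6 CPM in A1 to A5, 69.9, 50.8, 47.9, 64.8 and 91.2 CPM in O1 to O5 and 58.6, 49.7, 49.4, 51.9 and 51.4 CPM in P1 to P5. The Adult mice lay below all other mice. Rpsa had a log2 fold change of 0.70 ± 0.15 (SE; edgeR adjusted p = 0.0216), with 31.9% of the pairs of Rpsa and its copies counted at Rpsa. Rps3, at the mRNA entry, was at 307 ± 18.0 CPM in Adult and 418 ± 72.6 CPM in Old mice (SD, n = 5; log2 fold change 0.44, adjusted p = 0.059), and its groups did not overlap. Rps15 and Rps25 gave log2 fold changes of 0.28, adjusted p = 0.113 and 0.55, adjusted p = 0.0578.

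Of the other small-subunit members that rose, Rps20, a head protein, was the next by p. Rps20 gave 32.2, 32.4, 28.9, 27.7 and 28.2 CPM in A1 to A5, 49.9, 37.9, 35.1, 41.8 and 47.0 CPM in O1 to O5 and 39.8, 33.7, 36.1, 35.1 and 38.5 CPM in P1 to P5. The Adult mice lay below every Old and PDX mouse. Its log2 fold change was 0.50 ± 0.11 (SE; edgeR adjusted p = 0.0233). Rps4x, Rps7, Rps9, Rps16, Rps19 and Rps24 also rose, by 0.38 (Rps24) to 0.60 (Rps16) on the log2 scale, with adjusted p from 0.0257 (Rps4x) to 0.0447 (Rps9).

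On the large subunit, Rpl27a, Rpl3, Rpl30, Rpl32 and Rpl8 rose beside Rpl39 and the stalk. Rpl8, a core protein near the peptidyl transferase centre with no copy by the rule above, was at 253 ± 15.3 CPM in Adult and 380.5 ± 97.1 CPM in Old mice (SD, n = 5), a log2 fold change of 0.59 ± 0.16 (SE; edgeR adjusted p = 0.0383). Rpl32, also without a copy, was at 73.7 ± 4.75 and 113 ± 31.4 CPM, and its log2 fold change was 0.62 ± 0.16 (SE; edgeR adjusted p = 0.0349). Rpl3, a core protein whose loop reaches toward the peptidyl transferase centre, was at 27.7 ± 2.14 and 42.9 ± 12.8 CPM, with 27.9% of the pairs of Rpl3 and its copies at the gene itself. Its log2 fold change was 0.63, adjusted p = 0.0412. Rpl27a and Rpl30 gave 0.68, adjusted p = 0.0313 and 0.45, adjusted p = 0.0307.

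Other members with a known role gave smaller or less certain differences. Rpl5 and Rpl11, which carry the 5S RNA into the large subunit and bind Mdm2 when assembly fails, had log2 fold changes of 0.43, adjusted p = 0.113 and 0.43, adjusted p = 0.102. Around the peptide exit, Rpl26 gave 0.34, adjusted p = 0.0609, Rpl23a 0.42, adjusted p = 0.141, Rpl19 0.31, adjusted p = 0.213 and Rpl17 0.15, adjusted p = 0.652. Rps6 gave 0.13, adjusted p = 0.718, and Rps27a, made as a fusion with ubiquitin, gave 0.21, adjusted p = 0.604. Without O5 these values were 0.0024 and -0.03. Rps19, the gene most often mutated in Diamond-Blackfan anaemia, rose (0.54, adjusted p = 0.0399), while Rps14 gave 0.42, adjusted p = 0.0594 and Rpl38 0.28, adjusted p = 0.39. Rpl4, the member with the most counts, was at 442 ± 12.9 CPM in Adult and 601 ± 122 CPM in Old mice, and its log2 fold change of 0.44, adjusted p = 0.0738, did not pass although its groups did not overlap.

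Rpl35a stood against this direction. Rpl35a was at 14.0, 14.1, 12.2, 12.7 and 13.3 CPM in the Adult mice A1 to A5, 11.3, 11.0, 9.99, 9.92 and 10.6 CPM in the Old mice O1 to O5, and 9.23, 9.47, 9.49, 8.32 and 10.7 CPM in the PDX mice P1 to P5. The Adult mice were the 5 highest of the 15, and no Old or PDX mouse reached their range. The log2 fold change of Rpl35a (chr16:33056453-33060189, + strand), a large-subunit protein also linked to Diamond-Blackfan anaemia, was -0.33 ± 0.10 (SE; edgeR adjusted p = 0.0636) for Old minus Adult and -0.49 ± 0.10 (SE; edgeR adjusted p = 0.02) for PDX minus Adult. It was the 1 member that passed in PDX minus Adult. This call was lost with library totals alone, without the filter on low counts, and when A1, A2, A5, P1, P2 or P4 was left out, and with its 13 copies added the groups of Old minus Adult overlapped.

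Some members are paralogs of another member and are known for narrower or lesser use, and their differences from those partners were not tested. Rpl3l, the partner of Rpl3 known from skeletal and heart muscle, had at most 49 counts in a mouse, with 1.26 CPM in O2 and 1.82 CPM in O4 and at most 0.410 CPM in any other mouse. Rpl10l, known from testis, had 0 counts in all 15 libraries, and Rpl39l, known from male germ cells, at most 2. Rpl22l1 was at 12.3 ± 1.08 CPM in Adult and 18.9 ± 5.55 CPM in Old mice, a log2 fold change of 0.63 ± 0.21 (SE; edgeR adjusted p = 0.0751), and Rpl22 at 94.8 ± 5.68 and 90.9 ± 8.55 CPM, a log2 fold change of -0.06 ± 0.10 (SE; edgeR adjusted p = 0.729). Rpl22 was 1 of 4 members with a lower mean in Old than in Adult mice, with Rpl35a, Rpl7l1 (-0.06, adjusted p = 0.844) and Rps27l (-0.22, adjusted p = 0.383). Rps27l gave 67.2, 68.9, 71.2, 64.2 and 68.1 CPM in A1 to A5, 85.4, 42.7, 56.1, 59.5 and 48.7 CPM in O1 to O5 and 61.6, 56.1, 70.4, 70.6 and 69.3 CPM in P1 to P5. O1 was the highest and O2 the lowest mouse of the 15, so the Old mice lay on both sides of the Adult range. Rps27l is a target of p53 and makes a protein close to that of Rps27. The partners Rps27, Rpl7 and Rpl10 gave 0.22, adjusted p = 0.71, 0.27, adjusted p = 0.185 and 0.45, adjusted p = 0.225. Without O5 the values of Rps27 and Rpl10 were -0.24 and 0.14, and that of Rpl7l1 ran from -0.20 without O4 to 0.05 without O5. Rps4x and Rpl39 rose, as given above.

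The Old mice were spread more widely than the others, with an SD of the summed level of 1044 CPM against 205 in Adult and 273 in PDX mice. O5 had the highest level of the 15 mice in 59 of 80 members and O1 in 19. Within the Old group, O3 had the lowest level in 59 members. These ranks were not counted over all genes. Against the 5 Adult mice, 74 members of O5, 71 of O1, 64 of O4, 50 of O2 and 31 of O3 lay above the highest, where the share over all genes was 39.1%, 30.3%, 26.0%, 36.5% and 25.8%. The median difference of the members from the Adult mean was 0.80 in O5, 0.57 in O1, 0.35 in O4, 0.23 in O2 and 0.05 in O3 on the log2 scale.

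**Figure D5:**
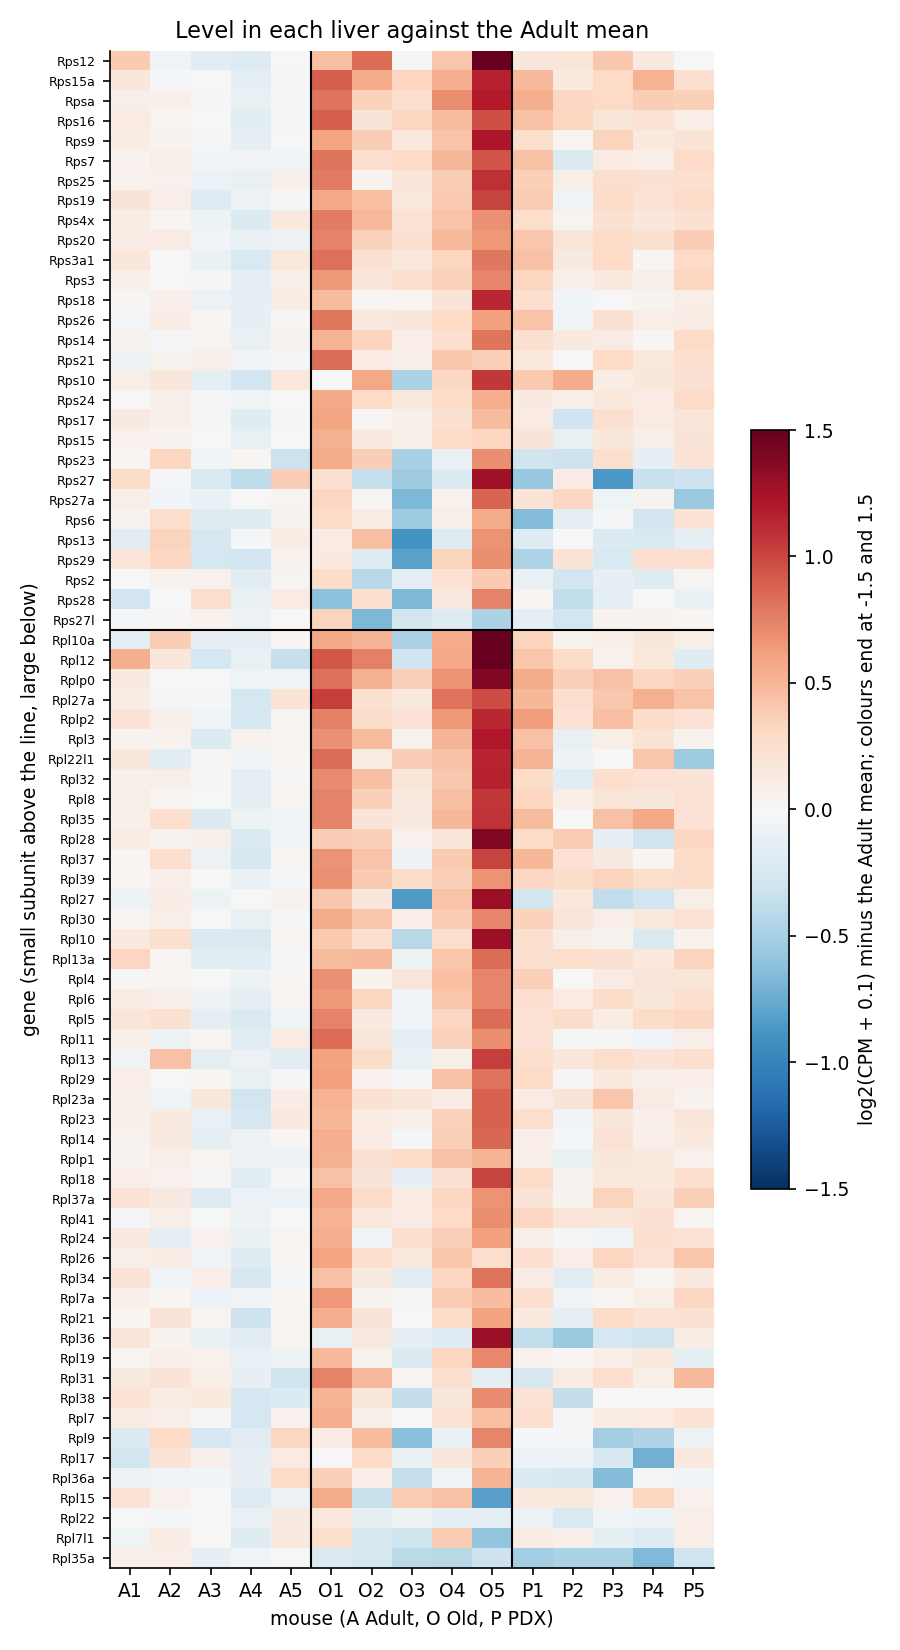
Difference of tested members from their Adult mean, log2(CPM + 0.1), in each of the 15 mice (columns), with the small subunit above the line and the large subunit below; values past -1.5 or 1.5 take the end colours. O5 and O1 are red for most genes, O3 is pale for most genes and blue for some, and the bottom row, Rpl35a, is blue in all Old and PDX mice.

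The largest spread among Old mice was in Rpl10a, Rpl12 and Rpl27. Rpl10a gave 8.07, 11.5, 8.16, 8.05 and 9.07 CPM in A1 to A5, 13.4, 12.7, 6.37, 13.1 and 52.8 CPM in O1 to O5 and 11.2, 9.19, 9.56, 9.97 and 9.46 CPM in P1 to P5. O5 was far above every other mouse, and the other Old mice lay near the Adult range. The SD of log2 CPM among Old mice was 1.11 for Rpl10a, 0.842 for Rpl12 and 0.776 for Rpl27. Only 11.7% of the pairs of Rpl10a and its copies and 13.0% of those of Rpl12 were counted at the member. The log2 fold change of Rpl10a was 1.13 ± 0.41 (SE; edgeR adjusted p = 0.0926), the highest of all members and not past the threshold. Without O5 it was 0.34, and that of Rpl12 and Rpl27 was 0.53 and 0.12 where all mice gave 0.98, adjusted p = 0.0761 and 0.45, adjusted p = 0.326.

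PDX minus Old sets the treatment against the vehicle at the same age. No member and no other gene passed in this comparison: 0 of 80 members and 0 of 15808 genes (0%) by edgeR's quasi-likelihood test, and 0 by the DESeq2 Wald test. The smallest adjusted p was 0.793 both over the members and over all genes. At an unadjusted p under 0.05, 23 members were lower in PDX than in Old mice and 0 higher, against 4.23% and 1.04% of all genes. The median log2 fold change was -0.28 over the members and -0.07 over all genes, and 77 of 80 members had a lower mean in PDX mice, with Rpl15 (0.02, adjusted p = 0.987), Rpl7l1 (0.05, adjusted p = 0.933) and Rps27l (0.17, adjusted p = 0.811) as the exceptions. A higher mean in PDX than in Old mice was found in 40.1% of all genes and in 3.75% of the members. The median over the members was -0.19 without O2 and O5, -0.17 without O5 and -0.36 without O3.

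The members with the smallest p in this comparison included Rplp1, Rps4x, Rpl32, Rpl3 and Rps7. Rplp1, at 165 ± 15.3 CPM in Old and 131 ± 9.90 CPM in PDX mice (SD, n = 5), was the 1 member in which all PDX mice were below all Old mice, against 0.196% of all genes, and 0 members were above, against 0.145%. Its log2 fold change was -0.33 ± 0.10 (SE; edgeR adjusted p = 0.793), or an unadjusted p of 0.00624. Rps4x gave -0.35 ± 0.12 (SE; edgeR adjusted p = 0.793). Rpl32 gave 77.4, 78.5, 71.9, 66.6 and 74.3 CPM in A1 to A5, 120.4, 101, 83.5, 97.8 and 164 CPM in O1 to O5 and 89.2, 65.8, 88.7, 85.2 and 84.2 CPM in P1 to P5. P2 was the lowest PDX mouse and O5 the highest Old mouse, and the groups overlapped at O3. The log2 fold changes of Rpl32, Rpl3 and Rps7 were -0.46, -0.49 and -0.42, with the adjusted p given above for the smallest.

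PDX minus Adult sets the treated mice of the older age against the Adult mice. By edgeR's quasi-likelihood test 0 members were higher and 1, Rpl35a, was lower, against 1.76% and 0.898% of all genes. At an unadjusted p under 0.05, 9 were higher (11.2%) and 1 lower (1.25%), against 11.2% and 9.41% of all genes, so the higher share was that of the background. The DESeq2 Wald test called 0 higher and 1 lower, and its calls over all genes in this comparison are not given. The median log2 fold change was 0.15 over the members and -0.01 over all genes, and 64 of 80 members had a higher mean in PDX mice, against 48.4% of all genes. In 13 members all PDX mice lay above all Adult mice, against 10.5% of all genes, and in 1 member, Rpl35a, all lay below, against 9.34%. The smallest p among those with a higher mean were those of Rpl39 (0.30, adjusted p = 0.122), Rps20 (0.29, adjusted p = 0.146), Rpsa (0.38, adjusted p = 0.165), Rpl27a (0.42, adjusted p = 0.179), Rpl26 (0.26, adjusted p = 0.179) and Rplp0 (0.41, adjusted p = 0.18). Among those with a lower mean, Rpl35a was followed by Rps27 (-0.42, adjusted p = 0.535), Rpl36a (-0.23, adjusted p = 0.54), Rpl36 (-0.27, adjusted p = 0.61), Rpl9 (-0.23, adjusted p = 0.619) and Rpl17 (-0.19, adjusted p = 0.628). The count of higher calls changed with the mice in the fit. It was 15 with only the 10 Adult and PDX mice in the fit, 9 without O2 and O5 and 3 without O5, where 4529, 4004 and 1744 of all 15808 genes were called in either direction.

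The genes around the ribosomal proteins were counted from lists of other parts of the pathway. Some ribosome components fall outside the naming rule. Rack1, the scaffold protein on the small-subunit head, rose in Old minus Adult. Rack1 was at 278, 266, 259, 239 and 269.9 CPM in the Adult mice A1 to A5, 477, 354, 321, 391 and 588 CPM in the Old mice O1 to O5, and 357, 288, 321, 323 and 319 CPM in the PDX mice P1 to P5. All Old mice were above all Adult mice, as for the stalk, and the log2 fold change was 0.70 ± 0.16 (SE; edgeR adjusted p = 0.0249). Fau, which encodes a ubiquitin-like protein fused to a ribosomal protein, gave 0.07, adjusted p = 0.859.

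These lists are given for Old minus Adult, each with the median of its log2 fold changes. Of 16 translation factors and other genes known for a terminal oligopyrimidine tract, which was not looked for here, 2 rose and 0 fell, and the median was 0.26. Both that rose belong to the elongation factor 1 complex, Eef1b2 (0.53, adjusted p = 0.0386) and Eef1g (0.58, adjusted p = 0.0389). Of 26 ribosome biogenesis genes, 0 rose and 0 fell, and the median was 0.49. The smallest p were those of Rrp1b (1.26, adjusted p = 0.069) and Heatr1 (0.58, adjusted p = 0.0768). Their summed level was 2091 CPM in O5 against 612 to 830.3 CPM in the other Old mice and 691 to 759 CPM in Adult mice. Of 9 genes of RNA polymerase I and its factors, 1 rose and 0 fell, and the median was 0.37, and the one that rose was Taf1c (0.88, adjusted p = 0.037), next to Polr1e (0.74, adjusted p = 0.0518). Their summed level was 387 CPM in O5, 179 to 208 CPM in the other Old mice and 184 to 207 CPM in Adult mice.

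Of 8 hosts of small nucleolar RNAs, 0 rose and 0 fell, and the median was 0.59, led by Snhg3 (1.13, adjusted p = 0.0852) and Snhg5 (1.24, adjusted p = 0.126). O5 stood alone here too, with a summed level of 377 CPM against 92.3 to 130.2 CPM in the other Old mice and 103 to 149 CPM in Adult mice. Of 14 regulators of ribosomal protein translation, 0 rose and 0 fell, and the median was 0.05, and the smallest p were those of Eif4ebp2 (-0.54, adjusted p = 0.0685) and Mknk1 (0.41, adjusted p = 0.113). Of 7 genes of the Myc network, 0 rose and 0 fell, and the median was 0.37. Myc was at 2.73, 11.5, 2.78, 5.05 and 4.71 CPM in the Adult mice A1 to A5, 5.22, 18.0, 11.2, 4.20 and 30.8 CPM in the Old mice O1 to O5, and 7.69, 6.46, 7.92, 10.3 and 4.54 CPM in the PDX mice P1 to P5. O5 was the highest and O2 the next, and the ranges of all groups overlapped. Its log2 fold change, 1.38, adjusted p = 0.102, did not pass, and that of Mnt, a repressor of the same network, was 1.00, adjusted p = 0.154, with 91.1 CPM in O5, 12.3 to 29.8 CPM in the other Old mice and 12.2 to 26.3 CPM in Adult mice. No gene of these lists passed in PDX minus Old, where 0 genes passed in all.

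Markers of other cells moved with age as well. All 8 neutrophil markers rose, led by Prtn3 (6.72, adjusted p = 0.0033) and Mpo (6.41, adjusted p = 0.0153), and they summed to 2.50 to 6.34 CPM in Adult, to 30.4, 266, 19.8, 73.3 and 44.4 CPM in O1 to O5 and to 41.4 to 199.6 CPM in PDX mice. Elane was at 0 counts in 1 and Camp in 2 of the Adult mice. Of the 6 B cell markers 3 rose, led by Ms4a1 (3.11, adjusted p = 0.031) and Cd79b (2.30, adjusted p = 0.031), with sums of 7.15 to 13.1 CPM in Adult, 11.8 to 131 in Old and 24.7 to 67.0 in PDX mice. Of 5 tested plasma cell markers 2 rose, Ighm (3.76, adjusted p = 0.00118) and Mzb1 (3.51, adjusted p = 0.0151), with sums of 352 to 579, 586 to 821 and 622 to 1069.7 CPM. Most of the Adult sum was Sdc1, at 417 CPM, which hepatocytes also make and which did not pass (-0.12, adjusted p = 0.776). Tnfrsf17 was at 0 counts in 6 mice, 3 of them Adult. Of the 5 tested proliferation genes 1, Mki67, rose (3.27, adjusted p = 0.034), ahead of Top2a (3.03, adjusted p = 0.0585), with sums of 5.11 to 7.00, 4.46 to 143 and 5.92 to 18.0 CPM and the highest in O2.

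Of the 5 stellate cell markers 1, Col1a1, rose (2.56, adjusted p = 0.031), next to Col3a1 (1.37, adjusted p = 0.0651), while Lrat and Reln gave -0.81, adjusted p = 0.0799 and -0.29, adjusted p = 0.409. Of the 7 hepatocyte markers 2 fell, Cyp2e1 (-1.50, adjusted p = 0.0184) and Ass1 (-1.25, adjusted p = 0.0476), while Apoa1 and Alb gave 0.62, adjusted p = 0.107 and -0.06, adjusted p = 0.931. Of the T and NK cell (Cd2, 2.34, adjusted p = 0.0585; Cd8a, 2.29, adjusted p = 0.103), erythroid (Hba-a1, 0.98, adjusted p = 0.282), macrophage (C1qa, 1.40, adjusted p = 0.0814; Vsig4, 1.54, adjusted p = 0.119), endothelial (Oit3, -0.53, adjusted p = 0.109; Kdr, -0.52, adjusted p = 0.119; Lyve1, 0.74, adjusted p = 0.247) and cholangiocyte (Krt7, 1.42, adjusted p = 0.0759; Sox9, 0.88, adjusted p = 0.0894) markers, none passed. Their summed levels were 3.95 to 6.98, 1.70 to 71.2 and 10.00 to 29.1 CPM in Adult, Old and PDX mice for T and NK cells, and 426 to 625, 221 to 3071 and 725 to 1509 CPM for macrophages. They were 255 to 284, 104 to 241 and 194 to 271 CPM for endothelium, 37.7 to 50.9, 51.0 to 95.8 and 53.0 to 104 CPM for cholangiocytes, 330.4 to 362, 331 to 822 and 319.6 to 609 CPM for stellate cells and 174 to 266, 95.8 to 1059 and 125 to 478 CPM for erythroid cells. The endothelial sum was below the Adult range in all Old mice. The cholangiocyte sum was above it by little, with O3 at 51.00 and A2 at 50.94 CPM. Scaled by library totals alone, O1 at 48.2 CPM was below A5 at 49.1 CPM, so the cholangiocyte sums overlapped. Most of the Adult cholangiocyte sum was Spp1, at 36.9 CPM. The B cell, T and NK cell, macrophage, neutrophil, plasma cell, erythroid and proliferation sums were highest in O2 among Old mice. The stellate and cholangiocyte sums were highest in O5, at 822 and 95.8 CPM. That stellate sum was mostly Dcn, Col3a1 and Col1a1, at 355, 237 and 188 CPM. In O5, Reln at 27.1 CPM was the lowest of all mice, and Lrat at 15.2 CPM was below all Adult mice. The hepatocyte sum was highest in O1 and lowest in O5. TMM scaled, O5 and O1 had the highest ribosomal protein sums. In O5 the T and NK cell and macrophage sums, 1.70 and 221 CPM, were below all Adult mice. In PDX minus Adult, 1 hepatocyte marker was lower, and 2 plasma cell, 3 neutrophil and 1 cholangiocyte marker were higher. The part of these cells in the levels of ribosomal protein genes was not tested.

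Members are shorter than most genes, so length was set beside the result. The median exonic length was 1806 bases in the tested members and 4426 in the other 13274 protein-coding genes tested. The 860 other protein-coding genes with length and GC content between the quartiles of the members had a median log2 fold change of 0.04 for Old minus Adult, and those under 1000 bases 0.04, against 0.42 in the members. After removal of a trend over length and GC content in each mouse, the members' median was 0.32, that of all genes -0.05, and 1 member passed by limma, where 1024 of all genes passed in either direction. The 15 members with under 25% of their windows shared had a median of 0.44 and 6 that rose, and the 65 others a median of 0.42 and 14 that rose. With the counts of the 402 copies added to their members, 32 members rose and the median was 0.48. In that fit 1023 of all genes passed in either direction.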

How the data were processed

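Poly(A)-selected, stranded libraries were made from frozen liver of 15 mice (5 per group) and sequenced as paired 50-base reads. The authors aligned them with STAR 2.6.0c to mm10 and deposited counts of uniquely aligned proper pairs per gene from featureCounts (Subread 1.6.2; Ensembl annotation, mitochondrial genes left out). They also deposited values on a log2-like scale, a variance-stabilizing transformation made with DESeq2 1.23.10, which were used here in an alternative. Depth was 22424383 to 36070835 pairs per mouse; replicate pairs differed by more than sampling noise (chi-square per degree of freedom of 15.8 or more).

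Symbols came from a table of gene names (55104 of 55450 IDs matched), and exons, lengths and shared 50-base windows from GENCODE on GRCm38, the same assembly as mm10. Genes with too few counts (edgeR 4.0.16 filterByExpr, minimum count 10) were left out. The test was edgeR's quasi-likelihood test on the counts, TMM scaled, all 15 mice in 1 fit, Benjamini-Hochberg over 15808 genes, threshold 0.05; SE is the log2 fold change over the root of F. The fit was also run on simulated counts, and the outcome is not given here. DESeq2 1.42.0, limma 3.58.1, other scalings, no filter, other sets of mice, a replicate block and added copies were alternatives. Named were the members with a fixed role, the 6 smallest p in each direction per comparison, the highest and lowest levels, the largest spread in Old mice, every called member, and for other lists the 2 smallest p. The members and lists were chosen with earlier results of these data known. Some genes are not reported here by name or drawn by name. By the study's methods the mice were handled in batches, and groups took turns in the order of euthanasia within a batch. Which batch a mouse belonged to is not given in the sources used here, so no within-batch value could be computed.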

Additional observations from a re-analysis of the deposited data

Results flagged for a closer look

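The highest or lowest mouse of each group of 5 was set against the others, for the summed levels, the members that passed a test and the 3 members with the largest spread among Old mice, by the gap to its neighbour over the range of the group. In 5 of 84 groups this ratio was above 0.71, Dixon's critical value for 5 samples, and chance flags about 1 in 20 groups. That rate does not hold for the Old groups of the 3 members with the largest spread, Rpl10a among them. These members were picked from the same Old values. Rpl10a was at 52.8 CPM in O5, with the other Old mice at 6.37 to 13.4 CPM. Rpl3 was at 23.8 CPM in A3, with the other Adult mice at 28.4 to 28.8 CPM. Rplp0 was at 201 CPM in A1, with the other Adult mice at 175 to 182 CPM. Among PDX mice, Rpl32 was at 65.8 CPM in P2 with the others at 84.2 to 89.2 CPM, and Rpsa at 58.6 CPM in P1 with the others at 49.4 to 51.9 CPM.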

How the results depend on the processing

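The log2 fold changes of the 20 members that rose in Old minus Adult were above 0 in each of the 29 settings, from 0.28 to 0.89, with adjusted p from 0.000143 to 0.157. The number of members that rose was 20. With the DESeq2 Wald test it was 42, with library totals alone 32 and without the filter on low counts 6. It was 0 with only the 2 groups in the fit, 12 with limma on the transformed values and 1 after removal of the length and GC trend. With sequence copies added (an alternative chosen after seeing the data) it was 32. Over all genes, in the same order, 2524, 1085, 665, 105, 651, 1024 and 1023 were called in either direction. In the main fit 745 of all genes rose and 327 fell. Leaving out single mice gave 0 to 47 members that rose. Members lower in Old than in Adult mice were 0, or 1 with the DESeq2 Wald test, and 0 to 1 with single mice left out. For PDX minus Adult, higher members were 0, or 15 with only the 2 groups and 9 without O2 and O5, and 0 to 3 with single mice left out. The 1 lower member of that comparison was lost (0) with library totals alone, without the filter and with the replicate block, and single mice left out gave 0 to 1. No member passed in PDX minus Old in any setting. The median log2 fold changes kept their sign in all settings; with single mice left out they were 0.30 to 0.50 for Old minus Adult, -0.36 to -0.17 for PDX minus Old and 0.12 to 0.17 for PDX minus Adult.

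Members without overlap of the groups were 26 higher in Old than in Adult mice, and 46 with sequence copies added. The share of all genes with copies added is not given. The 1 lower was 0 with library totals alone and with sequence copies added. For PDX minus Old the 1 lower was 0 with upper quartile factors and 2 with library totals alone, without O2 and O5 and with named retrocopies added. For PDX minus Adult the 13 higher were 5 with library totals alone. The ratio of summed levels, Old over Adult, was 1.36, 1.43 with library totals alone and 1.31 without O2 and O5. The cause of these shifts was not tested.

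The labels number the mice of each group 1 to 5. The fit with that number as a replicate block left 1 member that rose in Old minus Adult. In that fit 237 of all genes passed in either direction. Deviations from the group means were correlated over genes. Same-numbered mice had means of -0.17 (Old and Adult), 0.09 (PDX and Old) and 0.03 (PDX and Adult). Pairs with different numbers had 0.04, -0.02 and -0.008. No Old mouse correlated best with the Adult mouse of its number. Among Old mice, P1 and P2 correlated best with O1 (0.29) and O2 (0.11). P3, P4 and P5 did so with an Old mouse of another number. Among Adult mice, P3 and P4 correlated best with A3 (0.08) and A4 (0.15), and P1, P2 and P5 with another number. No label ties the numbers to a batch, so whether same-numbered mice shared a batch cannot be told. With 5 mice per group and an uneven Old group, the calls rest on the spread estimate, and at low counts, as for Rps27 with 644 counts over 15 mice, small differences were not detectable.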
